A study of Mus musculus with 12 samples.

Results

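The RNAs described here are 50 named long noncoding RNAs (lncRNAs) that were well expressed in at least 1 of 4 groups of mouse brain cells. They were chosen from the deposited expression table as entries of the lncRNA biotype that carry a gene symbol and not a clone or predicted-gene name, and whose mean over the 3 libraries of a group reached 5 FPKM (a read level scaled to gene length and library size). Certain imprinted lncRNAs and the genes of the sex chromosomes were left out by that rule. Of 557 named lncRNA entries and 9963 lncRNA entries among 55862 in all, 50 met it. Because the group means chose the members, levels are given as a description. A member that reached 5 FPKM in 1 group only had to be high there, so its comparisons with that group are given as values without a test.

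All cells came from C57BL/6 mouse brain, and no genetic change is stated for any group. The A-iSCs were induced from astrocytes by 5 days of incubation as three-dimensional cell spheres. The P56-NSC and P0-NSC groups, the positive controls of the design, were brain-derived neural progenitors whose ages or culture histories the labels do not spell out. The AST group held the astrocytes at 0 days of incubation and was the negative control. The labels do not state whether replicate libraries derive from different animals or cultures, so p-values measure only the spread between libraries, which may be technical.

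LncRNAs are transcripts longer than the small RNA classes that do not serve as templates for a known protein. Some, such as Malat1 and Neat1, stay in the nucleus, where Neat1 is the scaffold of paraspeckles. Others are hosts: their introns hold small nucleolar RNAs (snoRNAs), which guide the modification of ribosomal RNA, or their transcripts hold microRNA hairpins. Many brain lncRNAs lie beside genes of neural transcription factors and are transcribed from the same promoter region in the opposite direction.

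Recovered read counts ran from 17077780 to 24452419 per library, so that a single read over 1 kb of gene added 0.0343 to 0.0623 FPKM. The 50 lncRNAs took 0.202% to 0.348% of reads in A-iSCs, 0.162% to 0.166% in P56-NSC, 0.225% to 0.272% in P0-NSC and 0.134% to 0.153% in AST. A-iSCs replicate 3 and AST replicate 2 stood apart from their groups. Deviations from the group mean followed gene length with a Spearman coefficient of 0.328 in A-iSCs 3, against -0.281 and -0.233 in the other A-iSCs libraries, and of -0.45 in AST 2, against 0.361 and 0.385 in the other AST libraries. Astrocyte markers summed to 1249 to 2524 FPKM in A-iSCs and 2869 to 3113 FPKM in P56-NSC, against 159 to 180 FPKM in AST, the group labelled astrocytes, in which all 9 were detected at 1 FPKM or more. Fibroblast and mural markers summed to 33.8 to 67.0 FPKM in A-iSCs, against 1884 to 2269 FPKM in AST. Microglia markers summed to 3595 to 4883 FPKM in A-iSCs and 304 to 395 FPKM in AST, and oligodendrocyte markers to 11334 to 12854 FPKM in P56-NSC and 121 to 144 FPKM in AST. In such bulk samples, fewer cells of a type and less RNA per cell cannot be told apart.

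The microRNAs that lie inside the members are shown first, because they are the mature products by which several of these hosts are known. Of the 50 lncRNAs, 9 hold an annotated microRNA entry on their own strand. The sequences below are those of RefSeq on GRCm38, written 5′ to 3′ with the seed (bases 2 to 8) in capitals. The first 2 share 1 seed and both lie in Lncppara, the next 2 lie in Mir100hg, and the others lie in Mir9-3hg, Mir22hg and Mir142hg.
let-7c-5p: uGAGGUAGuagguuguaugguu
let-7b-5p: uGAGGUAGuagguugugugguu
miR-100-5p: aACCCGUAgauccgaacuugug
miR-125b-5p: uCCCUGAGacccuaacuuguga
miR-9-5p: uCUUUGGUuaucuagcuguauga
miR-22-3p: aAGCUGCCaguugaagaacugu
miR-142a-5p: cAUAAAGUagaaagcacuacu
miR-142a-3p: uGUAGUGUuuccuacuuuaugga
The libraries counted reads over genes, so the levels below are those of the host transcripts and not of these mature microRNAs.

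Miat and Oip5os1 carry sequence features by which they are known, and both are among the strongly changed members below. Miat, known as Gomafu in neurons, holds repeats of ACTAAC, the branch-point sequence that splicing factor 1 binds. Its longest GENCODE M21 transcript of 9163 bases holds 11 of them on the transcribed strand, or 1.2 per kb, the highest density among the 50 members, of which 11 hold at least 1. The densest 150 bases (transcript positions 4923 to 5072) hold 4 and are printed with the motif in capitals.
Miat: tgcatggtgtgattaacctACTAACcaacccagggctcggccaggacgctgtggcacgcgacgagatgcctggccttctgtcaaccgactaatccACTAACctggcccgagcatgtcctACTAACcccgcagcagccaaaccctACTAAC
Oip5os1, the mouse form of Cyrano, is known for a highly complementary site for miR-7, through which that microRNA is degraded in mouse brain. The site lies at positions 2934 to 2959 of its transcript of 8300 bases. Capitals mark the match to the miR-7 seed and a further run of 13 complementary bases, and the microRNA follows with its seed in capitals.
Oip5os1 site: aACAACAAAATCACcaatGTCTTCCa
miR-7a-5p: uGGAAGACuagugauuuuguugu

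The 50 lncRNAs spanned a wide range of levels, and AST most often held the lowest. Means at 5 FPKM or more were reached by 29 members in A-iSCs, 28 in P56-NSC, 31 in P0-NSC and 24 in AST. Only 14 reached that level in all 4 groups, while 21 reached it in 1 group alone (3 in A-iSCs, 5 in P56-NSC, 8 in P0-NSC and 5 in AST). AST had the lowest mean for 25 of the members and A-iSCs for 1, whereas P56-NSC and P0-NSC had the highest mean for 17 and 16, A-iSCs for 8 and AST for 9. The median member stood at 7.34 FPKM in A-iSCs, 5.74 FPKM in P56-NSC, 6.05 FPKM in P0-NSC and 4.74 FPKM in AST.

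**Figure D1:**
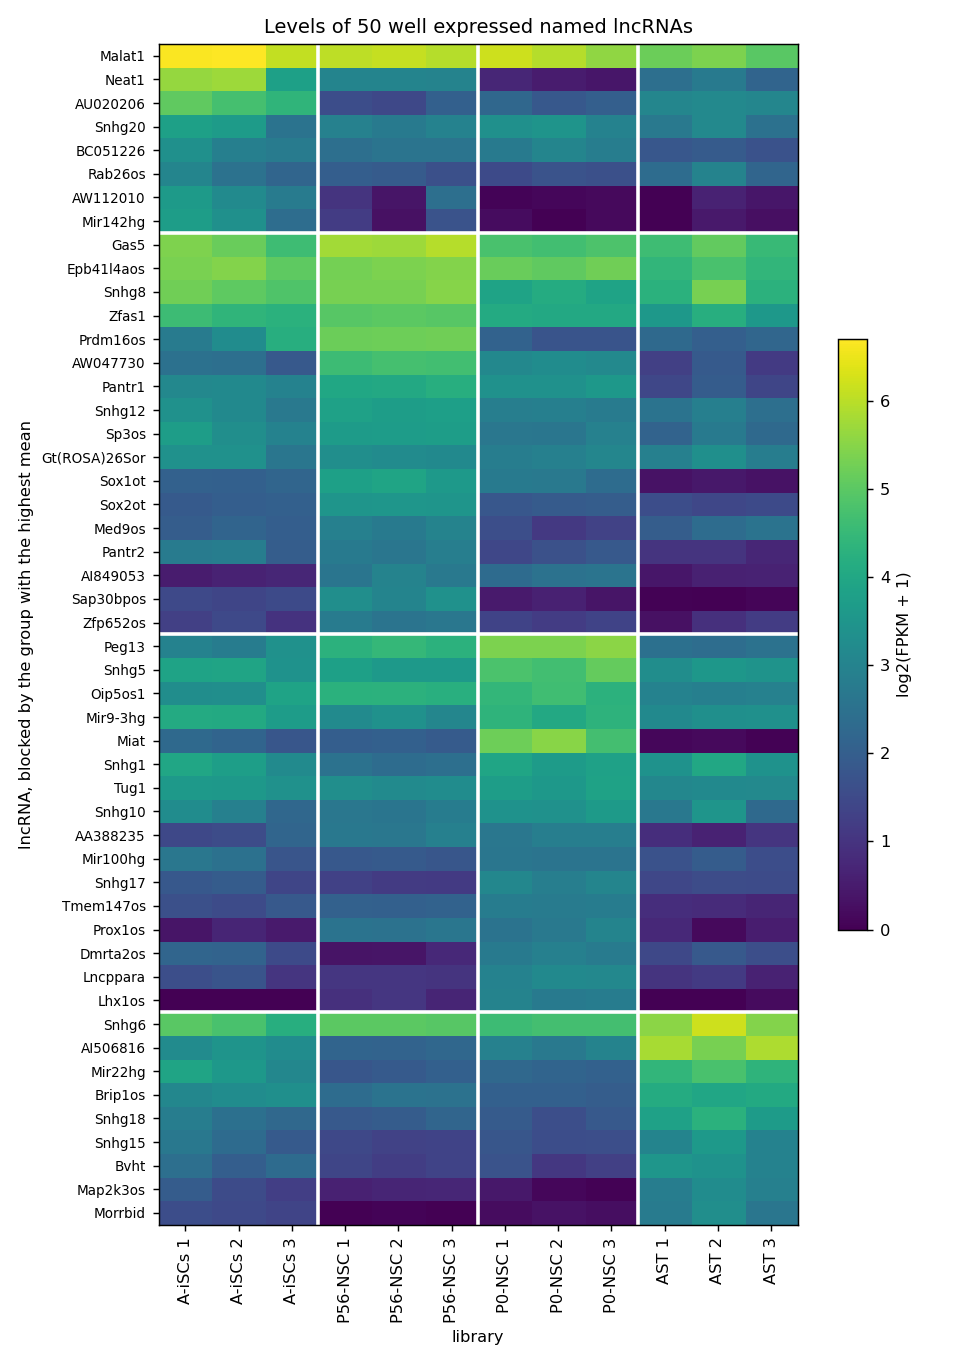
Heat map of log2(FPKM + 1) for the 50 lncRNAs (rows) in the 12 libraries (columns), with rows blocked by the group that has the highest mean, from A-iSCs at the top to AST at the bottom. The rows highest in P56-NSC (17) and P0-NSC (16) are the largest blocks, and A-iSCs 3 is dimmer than A-iSCs 1 and 2 in Neat1, Snhg20 and Mir142hg.

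Members close to the limit show how narrow the choice was. Just inside stood Mir100hg at 5.08 FPKM, Rab26os at 5.18 FPKM, Zfp652os at 5.40 FPKM, Pantr2 at 5.75 FPKM, Prox1os at 5.87 FPKM, AI849053 at 5.88 FPKM, AA388235 at 5.92 FPKM and Tmem147os at 5.98 FPKM, each in its highest group. Just outside stood Phf2os1 (4.93 FPKM), AV356131 (4.91 FPKM), Snhg16 (4.84 FPKM), Dlx6os1 and BC002059 (4.71 FPKM each), AI504432 (4.63 FPKM) and Six3os1 (4.42 FPKM).

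The incubation of astrocytes as spheres was compared first, A-iSCs against AST. Of 42 members that could be tested, 24 were higher and 4 lower in A-iSCs at a limma adjusted p below 0.05, the threshold for every call here, and 14 were not called. The members' median change was 0.54 on the log2(FPKM + 1) scale, while that of all 15747 genes tested was 0.00. The background was high: 58.9% of all genes were called in this comparison, 28.1% higher and 30.8% lower, against 66.7% of the members, 57.1% higher and 9.52% lower. Among genes of all biotypes chosen by the same level rule, 61.6% were called, 26.7% higher and 34.8% lower, and among all 916 lncRNA entries tested, 50.5% were called, 37.0% higher and 13.5% lower. The number called among members ranged up to 38 when A-iSCs 3 and AST 2 were both left out.

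**Figure D2:**
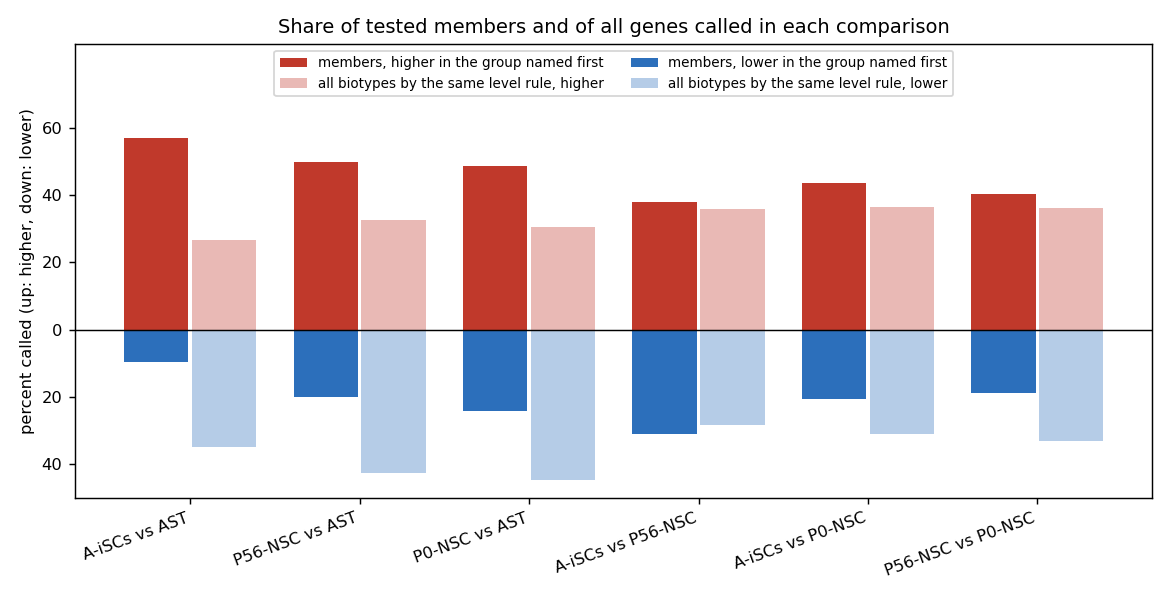
Percent of tested members called higher (upward bars) and lower (downward bars) in the group named first of each comparison, beside genes of all biotypes chosen by the same level rule (pale bars). In A-iSCs vs AST 57.1% of members were called higher and 9.52% lower, against 26.7% and 34.8% of the genes of all biotypes.

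Both NSC groups were compared with the same AST libraries, so the 3 comparisons share their controls and their values are given side by side only. In P56-NSC against AST, 20 of 40 testable members were higher and 8 lower (70.0% called, with 74.1% of all genes called, 37.1% higher and 37.0% lower). In P0-NSC against AST, 18 of 37 were higher and 9 lower (73.0% called, with 74.2% of all genes called, 35.9% higher and 38.3% lower). Genes of all biotypes at the same level were called in 75.5% of cases in P56-NSC (32.7% higher, 42.8% lower) and 75.3% in P0-NSC (30.5% higher, 44.8% lower), and lncRNA entries in 71.1% (55.5% higher, 15.6% lower) and 67.5% (47.3% higher, 20.2% lower). The shares of members called were thus near the background in both, and the members' median changes were 0.78 and 0.40. Called changes of at least 1 on the log2(FPKM + 1) scale were found for 12 of 42 testable members in A-iSCs against AST. The counts were 21 of 40 in P56-NSC and 15 of 37 in P0-NSC against AST. The share of all genes with called changes of that size is not given, so these counts are a description.

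The members on the list of nuclear-retained lncRNAs were higher in A-iSCs than in AST. Of the 5 on that list 4 were members (Malat1, Neat1, Miat and Tug1), and all 4 were called higher in A-iSCs, with a median log2 change of 1.63. Of all testable members 57.1% were called higher in this comparison, as were 37.0% of lncRNA entries and 28.1% of all genes. Malat1 (chr19:5795690-5802672, minus strand, GRCm38), which marks nuclear speckles, had the highest mean over all 12 libraries, while Snhg6 and AI506816 stood above it in AST. It took 15.8% to 25.8% of the members' reads in every library. Malat1 stood at 100, 103 and 66.3 FPKM in A-iSCs, at 65.0, 68.3 and 60.8 FPKM in P56-NSC, at 72.1, 60.6 and 47.2 FPKM in P0-NSC and at 35.6, 40.7 and 30.7 FPKM in AST. Every AST library was lower than every library of the other 3 groups. Malat1 rose by 1.29 ± 0.19 on the log2 scale in A-iSCs (SE, limma adjusted p = 9.56e-05), by 0.85 ± 0.19 in P56-NSC (limma adjusted p = 0.0014) and by 0.72 ± 0.19 in P0-NSC (limma adjusted p = 0.00412), each against AST. Between A-iSCs and P0-NSC the libraries overlapped, and the call for Malat1 (limma adjusted p = 0.0179) was lost without A-iSCs 1 (0.0659), A-iSCs 2 (0.0734) or P0-NSC 3 (0.0839).

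Neat1 (chr19:5824708-5845478, minus strand, GRCm38) lies beside Malat1 and had its highest mean in A-iSCs. Its level was 49.2, 51.6 and 12.9 FPKM in A-iSCs, 7.16, 7.12 and 6.99 FPKM in P56-NSC, 0.661, 0.417 and 0.316 FPKM in P0-NSC and 4.46, 5.82 and 3.46 FPKM in AST. The groups did not overlap, but A-iSCs 3 was far below the other A-iSCs libraries. Neat1 was higher in A-iSCs than in AST by 2.60 ± 0.40 on the log2 scale (SE, limma adjusted p = 0.000143), and by 3.23 without A-iSCs 3. In P0-NSC it was lower than in AST (log2 change -1.91 ± 0.40, limma adjusted p = 0.000892). The difference between P56-NSC and AST did not pass the test (log2 change 0.56 ± 0.40, limma adjusted p = 0.222). Against P0-NSC the log2 change was 4.51 in A-iSCs (5.14 without A-iSCs 3) and 2.47 in P56-NSC, both called, and against P56-NSC it was 2.04 in A-iSCs (2.67 without A-iSCs 3), also called. Neat1 made up 33.4%, 35.4% and 14.9% of the members' reads in A-iSCs and 0.336% to 0.616% in P0-NSC.

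Genes of paraspeckle proteins, which bind Neat1, were mostly lower in A-iSCs than in AST. Of 10, 1 rose and 7 fell in A-iSCs against AST, a split that became 1 and 4 under quantile normalization. In P56-NSC 1 rose and 8 fell, and in P0-NSC 7 rose and 1 fell, each against AST. Of all genes, 30.8% were lower in A-iSCs, 37.0% lower in P56-NSC and 35.9% higher in P0-NSC. All 10 were lower in A-iSCs than in P0-NSC, a comparison in which 34.7% of all genes were called lower. In A-iSCs against P56-NSC, 2 were higher, 1 was lower and 7 were not called, with 31.5% of all genes called higher and 31.3% lower. This count depended on the scaling: 9 were higher and 1 lower by total reads, and 3 and 1 under quantile normalization. The relation of these genes to the level of Neat1 was not tested. Sfpq, a core paraspeckle protein, averaged 40.2 ± 4.9 FPKM in A-iSCs and 50 ± 6.99 FPKM in AST (SD, n = 3 each), and 91.6 FPKM in P0-NSC. Pspc1, paraspeckle component 1, fell to 7.38 FPKM in A-iSCs, against 13.6 FPKM in AST (log2 change -0.80, limma adjusted p = 1.49e-05). Hnrnph3 was the exception that rose, with 12.4 FPKM in A-iSCs and 7.24 FPKM in AST.

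Miat was high in P0-NSC alone and close to 0 in AST. It stood at 3.90, 3.47 and 2.49 FPKM in A-iSCs, 3.03, 3.16 and 2.82 FPKM in P56-NSC, 36.4, 44.2 and 24.9 FPKM in P0-NSC and 0.077, 0.127 and 0.0348 FPKM in AST. Each other group lay wholly above AST, and A-iSCs and P56-NSC overlapped. The rise in A-iSCs over AST was 1.98 ± 0.18 on the log2 scale (SE, limma adjusted p = 1.9e-06) and that in P56-NSC 1.89 ± 0.18 (limma adjusted p = 1.18e-06). For P0-NSC the difference from AST was 5.03, given without a test because that group made Miat a member. Markers of neurons, in which Miat is best known, summed to 54.5 to 72.2 FPKM in A-iSCs, 282 to 346 FPKM in P56-NSC, 881 to 1057 FPKM in P0-NSC and 89.5 to 125 FPKM in AST. Of the 12 markers 6 were called higher and 2 lower in A-iSCs, 11 higher and 1 lower in P56-NSC and 12 higher in P0-NSC, each against AST, while 7 were higher and 4 lower in P56-NSC against P0-NSC. Among all genes 28.1%, 37.1% and 35.9% were called higher and 30.8%, 37.0% and 38.3% lower in A-iSCs, P56-NSC and P0-NSC against AST. In P56-NSC against P0-NSC these shares were 35.3% and 33.9%. The part of neurons in the levels of Miat was not tested. In GENCODE M21, 24.3% of its exon bases lie under exons of genes on the other strand, and the kit did not mark strand. Tug1, first described in the retina, changed little: it rose by 0.39 ± 0.09 in A-iSCs and by 0.59 ± 0.09 in P0-NSC against AST, both called.

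**Figure D3:**
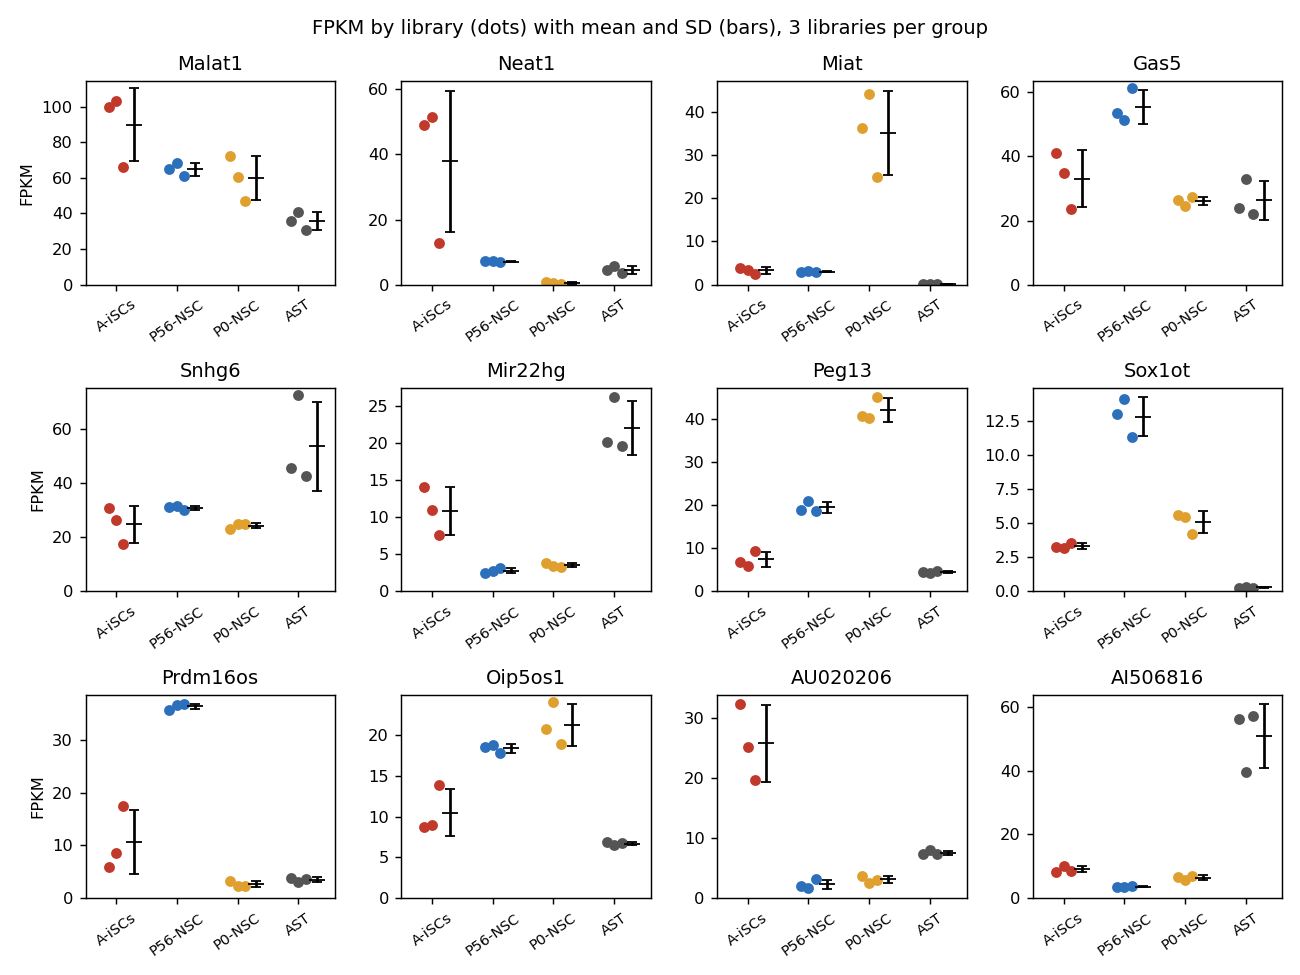
FPKM of 12 of the lncRNAs by library (dots, 3 per group), with the mean and SD beside them (black bars). Neat1 has 1 A-iSCs library at 12.9 FPKM below the others at 49.2 and 51.6 FPKM, Miat and Peg13 are highest in P0-NSC, Sox1ot and Prdm16os in P56-NSC, and AI506816, Mir22hg and Snhg6 in AST.

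Host genes of snoRNAs were the most numerous class, and they did not move as one. By annotation 15 of the 50 members hold a snoRNA or a scaRNA (its relative in Cajal bodies) on their strand, and 13 stood on the list of such hosts. In A-iSCs against AST, 57.1% of all testable members were higher and 9.52% lower. Of the 11 listed hosts that could be tested, 3 were higher, 1 was lower and 7 were not called. This count depended on the libraries and the scaling: 10 were higher and 1 lower without A-iSCs 3 and AST 2, 8 and 1 when values were scaled by total reads, and 6 and 1 under quantile normalization. In P56-NSC 5 were higher and 2 lower of 11, and in P0-NSC 3 were higher and 2 lower of 10, each against AST; without A-iSCs 3 and AST 2 the P0-NSC count was 7 and 2. The deviations of A-iSCs 3 and AST 2 followed gene length, as given above, and the part of gene length in these counts was not tested.

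Gas5, a growth-arrest transcript that holds 10 snoRNA entries, had the second highest mean over all 12 libraries, though not in every group (chr1:161034422-161038539, plus strand, GRCm38). It was at 41.2, 34.7 and 23.5 FPKM in A-iSCs, 53.7, 51.4 and 61.5 FPKM in P56-NSC, 26.5, 24.6 and 27.2 FPKM in P0-NSC and 23.8, 33.1 and 21.9 FPKM in AST. P56-NSC lay above every library of the other groups, while A-iSCs overlapped AST. Gas5 rose by 1.07 ± 0.19 in P56-NSC against AST (SE, limma adjusted p = 0.000281), and it was not called in A-iSCs (0.31 ± 0.19, limma adjusted p = 0.186) or in P0-NSC (0.01 ± 0.19, limma adjusted p = 0.962). Without A-iSCs 3 the A-iSCs value was 0.53 (limma adjusted p = 0.0117), and without AST 2 it was 0.48 (limma adjusted p = 0.0465), both called. It was also called when scaled by total reads (0.52, limma adjusted p = 0.0289) and under quantile normalization (0.59, limma adjusted p = 0.013).

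Zfas1, Snhg12 and Snhg8 had their highest means in P56-NSC as well. Zfas1 was at 23.2, 19.7 and 18.4 FPKM in A-iSCs, 30.1, 31 and 30 FPKM in P56-NSC, 16.2, 15.6 and 15.6 FPKM in P0-NSC and 10.9, 17.5 and 10.8 FPKM in AST. It rose in A-iSCs (0.63 ± 0.15) and P56-NSC (1.19 ± 0.15) against AST and was not called in P0-NSC (0.29 ± 0.15). Snhg12 rose by 1.14 ± 0.16 in P56-NSC, while its call in A-iSCs (0.46 ± 0.16, limma adjusted p = 0.0279) was lost without A-iSCs 1 (0.118), A-iSCs 2 (0.0826), AST 1 (0.084) or AST 3 (0.105). Snhg8 was at 36.7, 32.0 and 27.9 FPKM in A-iSCs, 39.4, 39.2 and 43.8 FPKM in P56-NSC, 13.8, 16.5 and 13.8 FPKM in P0-NSC and 18.5, 38.8 and 18.9 FPKM in AST. AST 2 lay above all A-iSCs libraries and the other AST libraries below them, and the log2 change of A-iSCs against AST was 0.41 (limma adjusted p = 0.145) with it and 0.75 (limma adjusted p = 0.000384) without it. With all libraries, Snhg8 was called higher there when scaled by total reads (0.62, limma adjusted p = 0.0279) and under quantile normalization (0.70, limma adjusted p = 0.01). The Snhg8 calls against AST in P56-NSC (0.75, higher) and P0-NSC (-0.67, lower) were also unstable: without AST 1 the adjusted p in P56-NSC was 0.0505, and without P0-NSC 1 or 3 that in P0-NSC was 0.0547 and 0.0544. Both calls were lost when scaled by total reads (limma adjusted p = 0.102 and 0.118), and that in P0-NSC under quantile normalization (0.109).

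Snhg6 went the other way and was highest in AST. It stood at 30.7, 26.2 and 17.4 FPKM in A-iSCs, 31.0, 31.4 and 30.1 FPKM in P56-NSC, 23.1, 24.8 and 25 FPKM in P0-NSC and 45.5, 72.4 and 42.7 FPKM in AST. No library of another group reached the AST values, and Snhg6 fell by 1.08 ± 0.21 in A-iSCs, by 0.74 ± 0.21 in P56-NSC and by 1.07 ± 0.21 in P0-NSC on the log2 scale (SE; limma adjusted p = 0.000814, 0.00683 and 0.000552). Exons of Mcmdc2 on the other strand cover 11.1% of its exon bases. Snhg15 and Snhg18 reached 5 FPKM in AST only, with means of 4.07 and 4.87 FPKM in A-iSCs and 8.40 and 14.5 FPKM in AST.

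Snhg1, Snhg5, Snhg10 and Snhg17 set the NSC groups apart. Snhg5 was at 13.7, 14.1 and 9.64 FPKM in A-iSCs, 12.9, 11.4 and 11.1 FPKM in P56-NSC, 27.0, 24.7 and 34.0 FPKM in P0-NSC and 8.76, 10.7 and 9.84 FPKM in AST. P0-NSC lay above all other libraries, higher than AST by 1.45 ± 0.15 on the log2 scale (SE, limma adjusted p = 2.91e-06). Snhg1 averaged 11.7 FPKM in A-iSCs, 4.43 FPKM in P56-NSC, 13.1 FPKM in P0-NSC and 11.5 FPKM in AST, and fell in P56-NSC against P0-NSC by 1.38 ± 0.20 (limma adjusted p = 5.79e-05). Snhg17 averaged 7.05 FPKM in P0-NSC and 1.29 to 2.38 FPKM in the other groups. Snhg10 averaged 5.46 FPKM in P56-NSC and 10.3 FPKM in P0-NSC (log2 change -0.81, limma adjusted p = 0.025), a call lost without P56-NSC 1 (0.0585), P56-NSC 2 (0.0681) or P0-NSC 3 (0.0789). Epb41l4aos, also on the list of snoRNA hosts, was at 39.5, 43.2 and 31.7 FPKM in A-iSCs, 38.7, 40.3 and 42.6 FPKM in P56-NSC, 34.8, 32.2 and 37.2 FPKM in P0-NSC and 20.1, 26.6 and 20.2 FPKM in AST. AST lay below all other libraries, and all 3 groups were called higher than it, by 0.75, 0.85 and 0.63.

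Many snoRNA hosts start with C followed by a pyrimidine run, the 5′ terminal oligopyrimidine pattern known from ribosomal protein genes. RefSeq start windows on GRCm38 were found for 13 of the hosts (15 windows), and 3 of these windows (20%) began with C and at least 5 pyrimidines on the transcribed strand, against 823 of 32851 windows in the table (2.51%). Among the other members 2 of 25 windows (8.0%) did. A match describes these letters only. The 3 are printed from 10 bases before the start to 25 bases from it, with the pyrimidine run in capitals.
Gas5 chr1:161035156-161035190: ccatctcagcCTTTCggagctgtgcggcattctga
Rab26os chr17:24528241-24528275: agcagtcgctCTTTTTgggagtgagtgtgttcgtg
Snhg8 chr3:123508312-123508346: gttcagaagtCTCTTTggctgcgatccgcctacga
Gas5 has a further start without the pattern. Rab26os, at 7.29, 4.74 and 3.53 FPKM in A-iSCs, averaged 2.62 FPKM in P56-NSC, 2.08 FPKM in P0-NSC and 4.91 FPKM in AST, and its A-iSCs libraries overlapped AST.

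The genes of the core snoRNP proteins, which bind the guide RNAs made from these introns, were mostly lower than in AST. Of 7, 0 rose and 6 fell in A-iSCs against AST (4 fell under scaling by total reads and under quantile normalization, and 5 without A-iSCs 3 and AST 2), 6 fell in P56-NSC and 4 in P0-NSC. Beside this stands the background of 30.8%, 37.0% and 38.3% of all genes called lower. Nop58, of the box C/D particle, fell to 5.52 FPKM in A-iSCs, against 15.2 FPKM in AST (log2 change -1.31 ± 0.11, SE, limma adjusted p = 6.71e-07), and to 2.18 FPKM in P56-NSC. Fbl, the methyltransferase fibrillarin, averaged 14.9 FPKM in A-iSCs, 8.51 FPKM in P56-NSC, 18.3 FPKM in P0-NSC and 29.0 FPKM in AST. Gar1, of the box H/ACA particle, averaged 9.33 FPKM in A-iSCs and 20.2 FPKM in AST. Among 7 genes of nonsense-mediated decay, the pathway that degrades many spliced host transcripts, 2 rose and 1 fell in A-iSCs, 1 rose and 3 fell in P56-NSC and 3 rose and 2 fell in P0-NSC. Smg6, its endonuclease, was higher than in AST in all 3 (5.93, 5.27 and 6.90 FPKM, against 3.44 FPKM in AST).

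**Figure D4:**
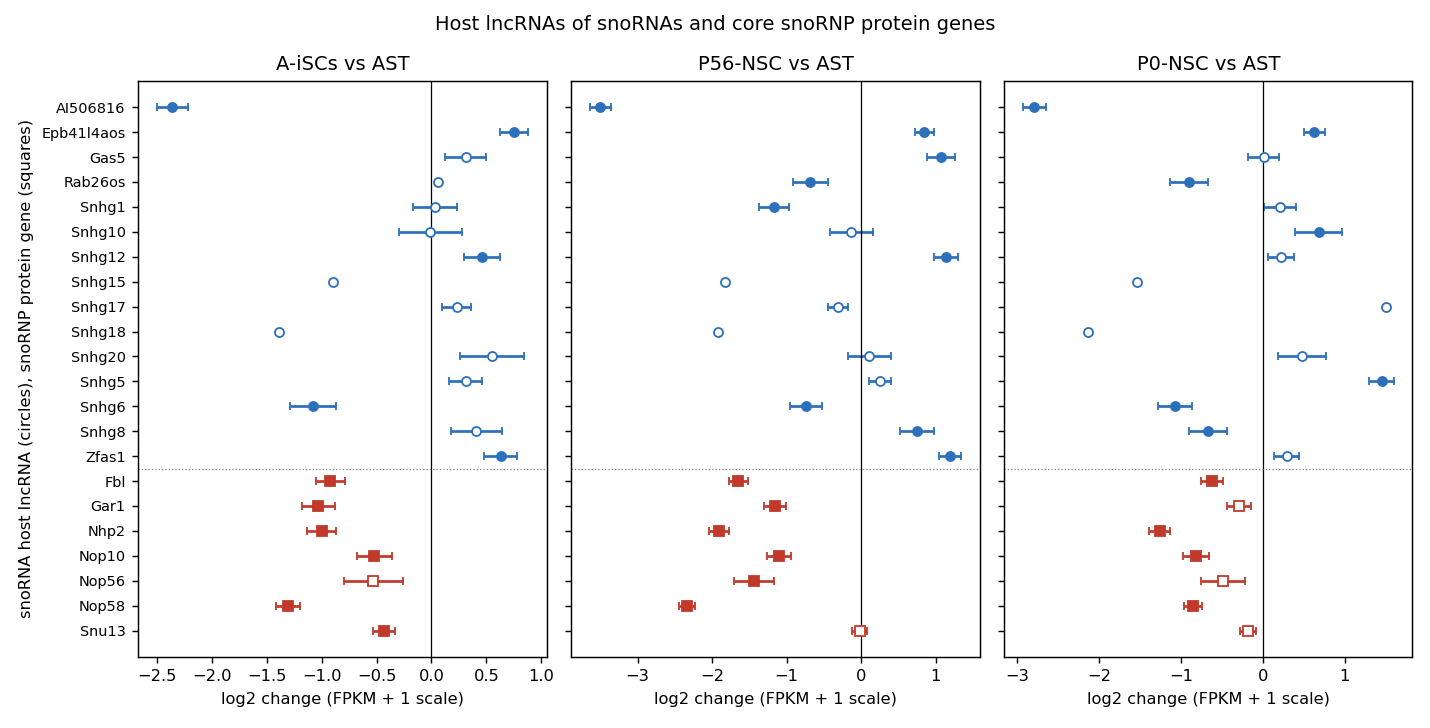
Log2 change against AST of the 15 snoRNA host lncRNAs (circles) and the 7 core snoRNP protein genes (squares) in A-iSCs, P56-NSC and P0-NSC. Filled symbols were called, open symbols were not, horizontal bars are SE, and symbols without a bar are values that were not tested; 6 of the 7 protein genes lie to the left of 0 as filled squares in A-iSCs vs AST and P56-NSC vs AST, while the hosts fall on both sides.

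The members on the list of microRNA hosts did not all change in the same direction. Of the 14 on that list 4 were members: Mir22hg, Mir9-3hg, Mir100hg and Mir142hg. Lncppara, given below, was not on it. Against AST, 2 rose and 1 fell of 3 testable in A-iSCs, 0 rose and 1 fell of 4 in P56-NSC, and 1 rose and 1 fell of 3 in P0-NSC. Among all genes 28.1%, 37.1% and 35.9% were called higher and 30.8%, 37.0% and 38.3% lower in these comparisons. With so few hosts the counts are a description. Mir22hg (chr11:75461539-75466676, plus strand, GRCm38), the host of miR-22, was at 14, 11 and 7.52 FPKM in A-iSCs, 2.46, 2.72 and 3.16 FPKM in P56-NSC, 3.79, 3.48 and 3.26 FPKM in P0-NSC and 20.1, 26.2 and 19.6 FPKM in AST. A-iSCs lay between AST and both NSC groups without overlap. It fell by 0.98 ± 0.18 in A-iSCs, 2.60 ± 0.18 in P56-NSC and 2.34 ± 0.18 in P0-NSC against AST (SE; limma adjusted p = 0.000556, 6.42e-08 and 1.98e-07). Mir9-3hg, host of a hairpin for miR-9, a microRNA of neural progenitors and neurons, was at 16.1, 15.7 and 12.1 FPKM in A-iSCs, 8.26, 9.53 and 7.5 FPKM in P56-NSC, 19.5, 15.5 and 19.2 FPKM in P0-NSC and 8.14, 9.03 and 9.23 FPKM in AST. It was higher than in AST in A-iSCs (0.67 ± 0.13, limma adjusted p = 0.00083) and in P0-NSC (0.96 ± 0.13, limma adjusted p = 2.86e-05), and P56-NSC overlapped AST.

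Lncppara, host of the let-7c and let-7b hairpins, averaged 1.82 FPKM in A-iSCs, 1.06 FPKM in P56-NSC, 7.57 FPKM in P0-NSC and 0.925 FPKM in AST. Mir100hg, the longest member with 23898 bases of exons, averaged 4.15 FPKM in A-iSCs, 2.59 FPKM in P56-NSC, 5.08 FPKM in P0-NSC and 2.35 FPKM in AST. In A-iSCs against AST the libraries of both hosts overlapped. The call for Lncppara (0.53, limma adjusted p = 0.0203) was lost without A-iSCs 1 (0.0681), A-iSCs 2 (0.0896) or AST 3 (0.0915). That for Mir100hg (0.58, limma adjusted p = 0.0212) was lost without A-iSCs 1 (0.0907), A-iSCs 2 (0.0806), AST 1 (0.059) or AST 3 (0.0759). Of 8 tested genes of the microRNA machinery, 3 rose and 2 fell in A-iSCs and in P56-NSC, and 5 rose and 1 fell in P0-NSC, each against AST. Among all genes 28.1%, 37.1% and 35.9% were called higher and 30.8%, 37.0% and 38.3% lower in A-iSCs, P56-NSC and P0-NSC. Ago1, an Argonaute protein, averaged 12.3 FPKM in A-iSCs, 9.74 FPKM in P56-NSC, 24.4 FPKM in P0-NSC and 4.95 FPKM in AST, and was called higher in all 3. Xpo5, the exporter of hairpins, averaged 9.20, 7.88 and 8.77 FPKM in these groups and 16.0 FPKM in AST.

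Mir142hg and AW112010, both best known from blood-derived and immune cells, reached 5 FPKM in A-iSCs only. Mir142hg stood at 12.2, 9.38 and 4.30 FPKM in A-iSCs, 1.28, 0.232 and 2.26 FPKM in P56-NSC, 0.163, 0 and 0.135 FPKM in P0-NSC and 0, 0.367 and 0.2 FPKM in AST. AW112010 stood at 11.6, 8.21 and 5.94 FPKM in A-iSCs, 1, 0.31 and 4.46 FPKM in P56-NSC, 0.0544, 0.0854 and 0.135 FPKM in P0-NSC and 0, 0.552 and 0.335 FPKM in AST. For both, every A-iSCs library was above every other library, A-iSCs 3 was the lowest of its group, and P56-NSC varied by library. A count of 0 in AST 1 allows up to 0.665 FPKM of Mir142hg and 0.222 FPKM of AW112010 (3 reads, counting error only), and in P0-NSC 2 up to 0.383 FPKM of Mir142hg. All 13 microglia markers were called higher in A-iSCs than in AST, a comparison in which 28.1% of all genes were called higher. The markers summed to 3595 to 4883 FPKM in A-iSCs and 974 to 1065 FPKM in P56-NSC. In P0-NSC the sums were 169 to 211 FPKM and in AST 304 to 395 FPKM. None of the markers was at 0 in every library of a group. Their part in the levels of these lncRNAs was not tested. Calls in P56-NSC against P0-NSC for AW112010 (limma adjusted p = 0.0251) and Mir142hg (limma adjusted p = 0.0334) were lost without P56-NSC 3 (0.0763 and 0.148), without P56-NSC 1 for Mir142hg (0.0861), and without any single P0-NSC library (0.0522 to 0.0894).

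Most of the members on the list of neural lineage lncRNAs were higher in A-iSCs and in both NSC groups than in AST. Of the 16 on that list 6 were members, and 5 of 6 testable rose in A-iSCs, with 5 of 5 in P56-NSC and 5 of 5 in P0-NSC. The 6 were Sox1ot, Pantr1, Pantr2, Sox2ot, Lhx1os and the imprinted Peg13. The exception in A-iSCs was Lhx1os, which was not called. Of all lncRNA entries tested, 37.0%, 55.5% and 47.3% were called higher in these comparisons. Prox1os and Dmrta2os, given below beside their neighbouring genes, were not on the list. Neither was called in A-iSCs against AST (0.02 and 0.30). In P56-NSC against AST, Prox1os was called higher (2.07) and Dmrta2os lower (-1.15). Of the listed members set against P56-NSC, 0 were higher and 4 lower of 5 in A-iSCs, and against P0-NSC, 1 was higher and 3 lower of 5. Of all lncRNA entries, 17.1% were called higher and 39.5% lower in A-iSCs against P56-NSC. Against P0-NSC these shares were 26.3% and 32.0%. Sox1ot (chr8), which lies around the neural transcription factor gene Sox1, was at 3.25, 3.18 and 3.56 FPKM in A-iSCs, 13.0, 14.1 and 11.3 FPKM in P56-NSC, 5.6, 5.48 and 4.19 FPKM in P0-NSC and 0.249, 0.346 and 0.261 FPKM in AST. The 4 groups did not overlap. Sox1ot rose by 1.75 ± 0.11 in A-iSCs, 3.42 ± 0.11 in P56-NSC and 2.24 ± 0.11 in P0-NSC against AST (SE; limma adjusted p = 9.01e-08, 8.66e-11 and 4.32e-09). Sox1 itself averaged 17.6 ± 0.686 FPKM in A-iSCs, 27.3 ± 2.62 FPKM in P56-NSC, 15.7 ± 1.17 FPKM in P0-NSC and 8.32 ± 0.575 FPKM in AST (SD, n = 3 each), and was called higher than in AST in all 3.

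Pantr1 and Pantr2 lie on the other strand beside Pou3f3, which encodes a POU transcription factor of the forebrain. Pantr1 starts 926 bases from it and stood at 7.68, 8.12 and 6.90 FPKM in A-iSCs, 14.8, 15.6 and 17.3 FPKM in P56-NSC, 9.41, 9.47 and 10.8 FPKM in P0-NSC and 1.67, 2.89 and 1.64 FPKM in AST. The groups did not overlap, and the log2 changes against AST were 1.5 ± 0.14, 2.48 ± 0.14 and 1.85 ± 0.14, all called. Pantr2 stood at 5.92, 6.22 and 2.91 FPKM in A-iSCs, 5.77, 5.15 and 6.33 FPKM in P56-NSC, 1.70, 2.16 and 2.66 FPKM in P0-NSC and 0.996, 1.02 and 0.643 FPKM in AST. Again AST lay below every other library, and the changes were 1.63, 1.84 and 0.75, all called, that in P0-NSC not under quantile normalization (limma adjusted p = 0.0833). Pou3f3 rose by 0.64, 0.86 and 1.31, to 37.2, 43.7 and 59.7 FPKM, against 23.6 FPKM in AST. The order of the groups thus differed between the lncRNAs and their neighbour: Pou3f3 was highest in P0-NSC, while Pantr1 and Pantr2 had their highest means in P56-NSC.

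Sox2ot, whose gene spans that of Sox2, reached 5 FPKM in P56-NSC only. It was at 2.73, 2.99 and 3.15 FPKM in A-iSCs, 10.2, 10.4 and 10.3 FPKM in P56-NSC, 2.53, 2.82 and 2.95 FPKM in P0-NSC and 2.02, 1.70 and 1.83 FPKM in AST. A-iSCs lay above AST (0.47 ± 0.08, limma adjusted p = 0.000387). Prox1os, beside the neural and lymphatic transcription factor gene Prox1, separated the NSC groups from the rest: it was at 0.3, 0.61 and 0.405 FPKM in A-iSCs, 4.87, 4.74 and 5.21 FPKM in P56-NSC, 4.91, 5.56 and 7.15 FPKM in P0-NSC and 0.720, 0.119 and 0.455 FPKM in AST. It was called higher in P56-NSC (2.07 ± 0.16, limma adjusted p = 1.73e-07) and not called in A-iSCs (0.02 ± 0.16, limma adjusted p = 0.916), and Prox1 averaged 1.61 FPKM in A-iSCs, 6.80 FPKM in P56-NSC, 12.2 FPKM in P0-NSC and 1.19 FPKM in AST. Exons of Prox1 cover 16.1% of the exon bases of Prox1os on the other strand, so without strand some reads cannot be told apart. Dmrta2os, divergent from Dmrta2, averaged 2.95 FPKM in A-iSCs, 0.427 FPKM in P56-NSC, 6.11 FPKM in P0-NSC and 2.16 FPKM in AST, an order that Dmrta2 did not wholly share (8.61, 3.23, 17.0 and 10.4 FPKM).

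Of the 50 members 20 have the start of a coding gene within 1000 bases of their own, 14 of them divergent, 5 on the opposite strand with overlapping starts and 1 on the same strand. Among pairs in which both could be tested, the lncRNA and its neighbour were both called in the same direction in 4 of 16 pairs in A-iSCs, 8 of 15 in P56-NSC and 5 of 13 in P0-NSC, each against AST. They were called in opposite directions in 1, 2 and 2 pairs. Between the other groups, the same direction was called in 8 of 16 pairs and opposite directions in 2 for A-iSCs against P56-NSC, 5 of 14 and 1 for A-iSCs against P0-NSC, and 3 of 13 and 4 for P56-NSC against P0-NSC. Since 58.9% to 74.2% of all genes were called in these comparisons and no share over other gene pairs was computed, the counts are a description. Map2k3os and Lhx1os are printed as examples picked by hand. Both are divergent, and the RefSeq start of each is the start of its deposited entry. Both had their highest mean in the group where the neighbour had its own, as did Dmrta2os, which is not printed. That group was also the only one that made each printed lncRNA a member, so its highest level there was set by the rule. The windows run from 250 bases before the lncRNA's RefSeq start to 50 after it on GRCm38, on the lncRNA's strand, and capitals mark the bases between the 2 starts.
Map2k3os chr11:60931818-60932117, minus strand: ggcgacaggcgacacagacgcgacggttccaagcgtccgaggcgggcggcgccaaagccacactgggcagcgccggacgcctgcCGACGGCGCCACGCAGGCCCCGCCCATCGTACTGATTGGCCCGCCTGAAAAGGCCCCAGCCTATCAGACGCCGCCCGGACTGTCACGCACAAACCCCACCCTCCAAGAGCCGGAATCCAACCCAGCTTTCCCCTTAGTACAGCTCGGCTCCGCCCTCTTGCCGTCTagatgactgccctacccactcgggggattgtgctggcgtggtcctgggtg
Lhx1os chr11:84525410-84525709, plus strand: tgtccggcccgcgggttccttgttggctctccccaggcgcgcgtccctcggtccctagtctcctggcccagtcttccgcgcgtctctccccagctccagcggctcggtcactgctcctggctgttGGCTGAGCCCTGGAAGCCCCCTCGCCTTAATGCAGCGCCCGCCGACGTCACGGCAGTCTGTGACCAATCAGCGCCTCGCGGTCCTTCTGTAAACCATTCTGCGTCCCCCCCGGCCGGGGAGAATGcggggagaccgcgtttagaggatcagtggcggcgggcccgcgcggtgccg
These windows held 67.7% and 69.3% G and C and 30 and 33 CpG dinucleotides. The median over all windows in the table was 52.7% G and C, and over the members with a close neighbour 67.7%.

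Map2k3os starts 166 bases from Map2k3, which encodes a kinase upstream of p38. It was at 2.84, 1.89 and 1.36 FPKM in A-iSCs, 0.535, 0.627 and 0.658 FPKM in P56-NSC, 0.339, 0.0798 and 0.0281 FPKM in P0-NSC and 6.14, 8.59 and 6.51 FPKM in AST, the group that made it a member. Map2k3 averaged 11 ± 3.03 FPKM in A-iSCs, 2.97 ± 0.358 FPKM in P56-NSC, 5.35 ± 0.301 FPKM in P0-NSC and 35.9 ± 4.14 FPKM in AST (SD, n = 3 each) and was called lower in all 3 groups than in AST. Between P56-NSC and P0-NSC the pair differed in direction, with log2 changes of 0.49 in Map2k3os and -0.68 in Map2k3, both called. Lhx1os starts 125 bases from Lhx1, a LIM homeobox gene, and had 0 reads in each A-iSCs library, which allows up to 0.213, 0.181 and 0.160 FPKM (3 reads per library, counting error only). It was at 0.908, 1.07 and 0.609 FPKM in P56-NSC, 7.01, 5.66 and 6.03 FPKM in P0-NSC and 0, 0 and 0.154 FPKM in AST. Lhx1os was called higher in P56-NSC than in AST (0.82), and Lhx1 was not (0.04, limma adjusted p = 0.774). Lhx1 averaged 2.21 ± 0.523 FPKM in P0-NSC and 0.0357 to 0.0738 FPKM elsewhere.

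In other pairs the changes differed in size or direction. Prdm16os, divergent from Prdm16 with 703 bases between starts, was at 5.91, 8.51 and 17.5 FPKM in A-iSCs, 35.8, 36.6 and 36.8 FPKM in P56-NSC, 3.30, 2.34 and 2.34 FPKM in P0-NSC and 3.91, 3.06 and 3.62 FPKM in AST. P56-NSC lay far above the rest, and A-iSCs 3 stood above its group. Prdm16os rose by 3.05 ± 0.27 in P56-NSC (SE, limma adjusted p = 6.13e-07) and by 1.24 ± 0.27 in A-iSCs (limma adjusted p = 0.00188) against AST, while Prdm16, a regulator of neural stem cells, had smaller log2 changes in the same direction, 0.40 (limma adjusted p = 0.0338) and 0.39 (limma adjusted p = 0.0467), both called. Tmem147os, 39 bases from Tmem147, rose in A-iSCs (0.88 ± 0.10) and P56-NSC (1.29 ± 0.10), and Tmem147 fell (-0.76 and -0.72); exons on the other strand cover 11.4% of Tmem147os. BC051226, divergent from Daxx, rose by 1.21 ± 0.14 in A-iSCs, where Daxx was not called (0.10).

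**Figure D5:**
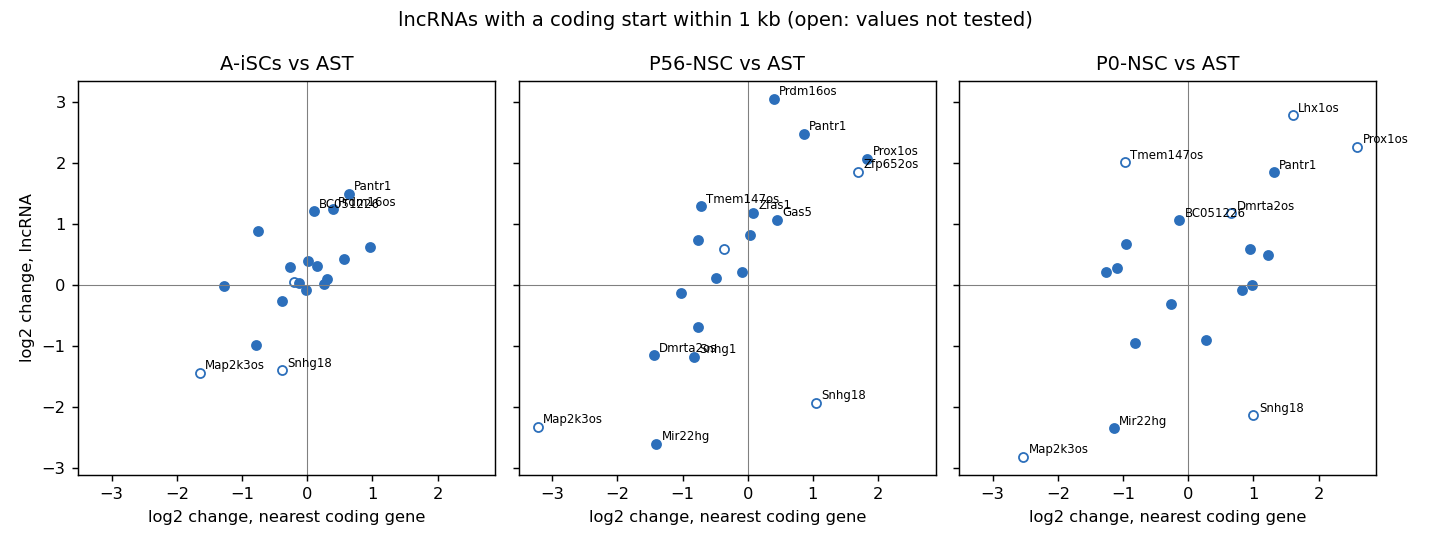
Log2 change against AST of each lncRNA with a coding start within 1 kb (vertical axis) and of that coding gene (horizontal axis), in A-iSCs, P56-NSC and P0-NSC. Filled points are lncRNAs that could be tested, open points are values only, and names mark lncRNAs beyond a log2 change of 1; Map2k3os and Map2k3 lie together at the lower left in all 3 panels, and Tmem147os lies above 0 where Tmem147 lies below.

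Several members were highest in AST and lower in every other group. AI506816 (chr5:23698296-23712667, minus strand, GRCm38) had the largest fall of the tested members in all 3 comparisons with AST. It stood at 8.33, 10.1 and 8.60 FPKM in A-iSCs, 3.49, 3.39 and 3.75 FPKM in P56-NSC, 6.76, 5.56 and 6.99 FPKM in P0-NSC and 56.1, 39.4 and 57.2 FPKM in AST. The log2 changes were -2.36 ± 0.14, -3.50 ± 0.14 and -2.79 ± 0.14 (SE; limma adjusted p = 5.36e-08, 4.83e-10 and 4.75e-09). Brip1os averaged 8.44 FPKM in A-iSCs, 4.61 FPKM in P56-NSC, 3.07 FPKM in P0-NSC and 15.6 FPKM in AST and was called lower in all 3, with 20.2% of its exon bases under exons of Ints2 and Med13 on the other strand. Morrbid, known for control of the survival of myeloid cells, was at 2.01, 1.81 and 1.57 FPKM in A-iSCs, 0, 0.0459 and 0.0149 FPKM in P56-NSC, 0.161, 0.245 and 0.196 FPKM in P0-NSC and 5.91, 8.91 and 5.24 FPKM in AST. AST was the group that made Morrbid a member, so the comparisons of Morrbid with AST are values only. Bvht, the cardiac lncRNA Braveheart, averaged 3.85 FPKM in A-iSCs, 1.52 FPKM in P56-NSC, 1.62 FPKM in P0-NSC and 8.98 FPKM in AST. The summed level of fibroblast and mural markers was also highest in AST, at 33.8 to 67.0 FPKM in A-iSCs, 16.3 to 31.7 FPKM in P56-NSC, 167 to 171 FPKM in P0-NSC and 1884 to 2269 FPKM in AST (5 of 8 above 1 FPKM there, none at 0 in every AST library). Marker by marker the calls were mixed: against AST, 0 of 8 were called higher and 5 lower in A-iSCs, 3 higher and 5 lower in P56-NSC, and 5 higher and 2 lower in P0-NSC. Among all genes 28.1%, 37.1% and 35.9% were called higher and 30.8%, 37.0% and 38.3% lower in these comparisons. The part of fibroblast and mural cells in the levels of these lncRNAs was not tested.

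AU020206, like Neat1, was higher in A-iSCs than in each of the other 3 groups. It (chr7:75769038-75782099, minus strand, GRCm38) was at 32.4, 25.2 and 19.7 FPKM in A-iSCs, 1.99, 1.74 and 3.18 FPKM in P56-NSC, 3.70, 2.61 and 3.07 FPKM in P0-NSC and 7.37, 7.98 and 7.40 FPKM in AST. Each A-iSCs library lay above all others, and both NSC groups lay below AST. AU020206 was higher in A-iSCs than in P56-NSC by 3.02 ± 0.19, than in P0-NSC by 2.68 ± 0.19 and than in AST by 1.61 ± 0.19 (SE; limma adjusted p = 3.94e-08, 1.09e-07 and 1.46e-05).

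Peg13, an imprinted lncRNA within Trappc9, followed another order, with P0-NSC highest. It was at 6.89, 6.00 and 9.46 FPKM in A-iSCs, 18.9, 21 and 18.7 FPKM in P56-NSC, 40.8, 40.3 and 45.2 FPKM in P0-NSC and 4.53, 4.30 and 4.80 FPKM in AST. The 4 groups did not overlap, and Peg13 rose by 0.59 ± 0.13 in A-iSCs, 1.89 ± 0.13 in P56-NSC and 2.96 ± 0.13 in P0-NSC against AST (SE; limma adjusted p = 0.002, 5.7e-08 and 1.49e-09). Oip5os1, with the miR-7 site printed above, was at 8.76, 8.93 and 13.9 FPKM in A-iSCs, 18.5, 18.8 and 17.8 FPKM in P56-NSC, 20.8, 24.1 and 18.9 FPKM in P0-NSC and 6.86, 6.48 and 6.76 FPKM in AST. Here too AST was lowest in every library, and the rises were 0.55 ± 0.15, 1.33 ± 0.15 and 1.53 ± 0.15 (limma adjusted p = 0.00642, 4.5e-06 and 1.44e-06).

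AW047730 and AI849053 overlap on opposite strands of chr3, with 32.0% and 31.0% of their exon bases under each other's exons, so their reads cannot be fully told apart. AW047730 was at 4.64, 4.48 and 2.69 FPKM in A-iSCs, 23.1, 25.2 and 24.7 FPKM in P56-NSC, 7.73, 8.58 and 7.94 FPKM in P0-NSC and 1.43, 2.72 and 1.19 FPKM in AST. AI849053 averaged 0.553 FPKM in A-iSCs, 5.88 FPKM in P56-NSC, 4.61 FPKM in P0-NSC and 0.460 FPKM in AST. AA388235 was at 1.73, 1.94 and 3.59 FPKM in A-iSCs, 5.38, 5.30 and 6.52 FPKM in P56-NSC, 5.30, 6.23 and 6.23 FPKM in P0-NSC and 0.832, 0.550 and 1.05 FPKM in AST. Sap30bpos averaged 1.75 FPKM in A-iSCs, 8.51 FPKM in P56-NSC, 0.408 FPKM in P0-NSC and 0.0313 FPKM in AST. Med9os (6.46 FPKM) and Zfp652os (5.40 FPKM) likewise reached 5 FPKM in P56-NSC only. Oligodendrocyte markers were at 203 to 224 FPKM in A-iSCs, 11334 to 12854 FPKM in P56-NSC, 66.7 to 102 FPKM in P0-NSC and 121 to 144 FPKM in AST (Mobp at 0 in AST), and their part in these P56-NSC levels was not tested.

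Gt(ROSA)26Sor and Snhg20 were not called in any of the 6 comparisons. Gt(ROSA)26Sor, the transcript of the Rosa26 locus widely used for transgenes, averaged 8.03 ± 2.42 FPKM in A-iSCs, 8.46 ± 0.445 FPKM in P56-NSC, 6.71 ± 0.616 FPKM in P0-NSC and 7.24 ± 1.58 FPKM in AST (SD, n = 3 each). Snhg20 averaged 9.85 ± 4.38 FPKM in A-iSCs, 6.45 ± 0.633 FPKM in P56-NSC, 8.75 ± 1.74 FPKM in P0-NSC and 6.03 ± 1.70 FPKM in AST, and A-iSCs 3, at 4.83 FPKM, fell below the other A-iSCs libraries at 12.9 and 11.8 FPKM. Sp3os, antisense to the start of Sp3, did differ: it was called higher than in AST in A-iSCs (0.94) and P56-NSC (1.30), and higher than in P0-NSC in both. Sp3os averaged 9.35 FPKM in A-iSCs, 12 FPKM in P56-NSC, 5.72 FPKM in P0-NSC and 4.38 FPKM in AST, and 12.2% of its exon bases lie under exons of Sp3.

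The spheres were then set against the progenitors. In A-iSCs against P56-NSC, 16 of 42 testable members were higher and 13 lower (69.0% called, with 62.9% of all genes called, 31.5% higher and 31.3% lower). At the same level, 64.3% of genes of all biotypes were called (35.8% higher, 28.5% lower), and 56.7% of lncRNA entries (17.1% higher, 39.5% lower). Scaling by total reads made the members' count 23 higher and 8 lower. Beside AU020206 and Neat1, Mir22hg (1.61), Dmrta2os (1.45), Morrbid (1.45) and Snhg1 (1.2) had the largest rises among tested members. The largest falls among tested members were those of AW047730 (-2.38), Prox1os (-2.05), Prdm16os (-1.81), Sox1ot (-1.67), Peg13 (-1.30) and AA388235 (-1.01). Among members given as values only, Mir142hg (2.10) and AW112010 (1.94) were higher, and AI849053 (-2.14), Sap30bpos (-1.78), Sox2ot (-1.52) and Zfp652os (-1.44) were lower. In A-iSCs against P0-NSC, 17 of 39 were higher and 8 lower (64.1% called, with 67.3% of all genes called, 32.6% higher and 34.7% lower). The shares were 67.6% for genes of all biotypes at that level (36.5% higher, 31.1% lower) and 58.3% for lncRNA entries (26.3% higher, 32.0% lower). Prdm16os (1.56), Map2k3os (1.38), Mir22hg (1.35) and Morrbid (1.22) followed Neat1 and AU020206 among the tested members, and Peg13 (-2.37), AI849053 (-1.85), Snhg5 (-1.14), AA388235 (-1.05), Oip5os1 (-0.97) and AW047730 (-0.90) were lower.

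Between the progenitor groups, P56-NSC against P0-NSC, 15 of 37 testable members were higher and 7 lower (59.5% called, with 69.2% of all genes called, 35.3% higher and 33.9% lower). Genes of all biotypes at that level were called in 69.5% of cases (36.3% higher, 33.2% lower) and lncRNA entries in 65.9% (39.6% higher, 26.3% lower). The members' split turned with the scaling, to 8 higher and 16 lower by total reads. Prdm16os had the largest rise among the tested members (3.36 ± 0.27, SE, limma adjusted p = 3.89e-07), followed by Neat1 (2.47), AW047730 (1.48), Snhg8 (1.42) and Sox1ot (1.18). Gas5 was higher by 1.06. Snhg1 (-1.38), Snhg5 (-1.20), Peg13 (-1.07), Mir9-3hg (-1.01) and AI506816 (-0.71) were lower in P56-NSC.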

How the data were processed

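RNA of 12 libraries was sequenced after preparation with a NEBNext Ultra RNA kit, per the labels' protocols, which does not mark strand. The deposited table gives FPKM for every gene in every library, a normalization done by the authors. Bowtie 0.12.2 is named in the submitters' processing notes together with mm8 and mm9, whereas 54899 of 55154 identifiers in common with GENCODE M21 (99.5%) had its GRCm38 coordinates. No source used here names the counting tool. FPKM times gene length gave whole reads within 0.01, so depth was recovered, and library totals implied by FPKM were 0.744 to 1.22 times the recovered totals. The 441 entries without a gene name stayed out of the tests.

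Values were analysed as log2(FPKM + 1), a scale that understates changes of low genes, with limma 3.58.1 in R 4.3.3, for the 15747 genes that reached 1 FPKM in 3 libraries. All 12 libraries entered 1 fit, and p-values were adjusted by Benjamini-Hochberg over all genes of each of 6 comparisons. The fit was tested on simulated data. Alternatives were pseudocounts of 0.1 and 0.5, other filters, scaling by total reads, quantile normalization, voom on recovered reads, fits of only the groups compared, a replicate block and leaving out libraries. Counts of gene lists under other scalings, or without A-iSCs 3 and AST 2, were added after seeing the data. Figures were drawn with matplotlib 3.10.9 under Python 3.11.15, with pandas 2.3.3.

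Members and gene lists were chosen with earlier results of these data known. Named genes were the 12 members of highest mean over all libraries, all members of the lncRNA lists and, per comparison, the 6 largest rises and falls, with up to 3 called partner genes per list. Sfpq, Gar1, Smg6 and the neighbouring genes were chosen after their values were seen.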

Additional observations from a re-analysis of the deposited data

How the results depend on the processing

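The number of members called in each comparison stayed within 1.5 times its value under every alternative run. Leaving out single libraries gave 25 to 35 in A-iSCs against AST, 27 to 31 in P56-NSC against AST, 24 to 29 in P0-NSC against AST, 27 to 33 in A-iSCs against P56-NSC, 22 to 29 in A-iSCs against P0-NSC and 18 to 24 in P56-NSC against P0-NSC. The settings were followed for 110 changes named or set beside one another. Some named calls were not among them, such as those of Sp3os, of Lhx1os in P56-NSC against AST and of Map2k3os in P56-NSC against P0-NSC. Of the 110, 97 kept their direction and side of the threshold in each of 24 settings that gave a value. One turned round: Snhg8 in A-iSCs against AST was -0.17 when AST was represented by replicate 2 alone and A-iSCs by replicates 1 and 2.

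Whether replicate numbers mark pairs of libraries could not be settled. The deviations of A-iSCs 1 correlated at -0.395 with AST 1 and at 0.523 with AST 2. Those of A-iSCs 2 correlated best with AST 2 (0.342). For A-iSCs 3 the highest value was with AST 3 (0.442), near that with AST 1 (0.411). Because deviations in these groups followed gene length, the correlations cannot decide on pairing. Not every library correlated best with its own number. A fit with the replicate number as a block called 28, 28, 25, 32, 24 and 22 members in the 6 comparisons, in the order above.

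Scaling by total reads moved the median of all genes by 0.18, -0.28, 0.24, 0.44, -0.07 and -0.51 log2 units in that order, so directions of small changes between P56-NSC and the other groups rest on the authors' scaling. The cause of these shifts was not tested. Depth limits members under about 1 FPKM, and short genes most.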
